A study of Mus musculus with 9 samples.

Results

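Mcpt4, Cma1, Tpsb2, Cpa3, Kit, Ms4a2, Fcer1a and Hdc, a set of granule enzymes and receptors by which mast cells are usually recognised, were followed across the libraries of fracture callus. They were taken from the expression table by symbol, and all 8 were among its 22054 genes. The list was drawn up with earlier results of these data known. The study asked how the cGAS-STING pathway acts early in fracture healing. Callus was collected on day 7 from male C57BL/6J mice whose left femur had been fractured, and every group received 200 μl by intraperitoneal injection each day for a week. The H-151 group received 750 nmol of H-151, a covalent inhibitor of STING, the SR-717 group received 30 mg/kg of SR-717, an activator of STING, and the PBS group received PBS as the control. The labels give the tissue as bone and the age as 7 weeks for all groups. Each group held 3 libraries, numbered as separate biosamples. The sources used here do not say whether a library came from 1 mouse or from pooled mice, so p-values measure only the spread between these samples.

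Mast cells are tissue-resident cells of blood origin that store proteases and histamine in granules and release them when antigen crosslinks IgE on their surface. Connective tissue mast cells, the type found in skin and muscle, carry chymases, tryptases and carboxypeptidase A3, whereas mucosal mast cells carry other chymases. Survival of both depends on the receptor KIT and its ligand, stem cell factor. In bone, mast cells lie in marrow and near vessels and appear in the callus during repair.

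The chymase Mcpt4 lies at chr14:56059629-56062313 on the minus strand of GRCm38. Cma1, the other chymase of connective tissue mast cells, lies at chr14:55941451-55944675 on the same strand, 114953 bases away. The tryptase gene Tpsb2 lies at chr17:25366305-25369098 on the plus strand and the carboxypeptidase gene Cpa3 at chr3:20215620-20242181 on the minus strand. Kit, which encodes the stem cell factor receptor, lies at chr5:75574916-75656722 on the plus strand. Ms4a2, the beta chain of the high-affinity IgE receptor, lies at chr19:11615523-11623719 on the minus strand, and Fcer1a, its IgE-binding alpha chain, at chr1:173221284-173227214 on the minus strand. Hdc, the enzyme that makes histamine from histidine, lies at chr2:126593667-126619299 on the minus strand. In the GENCODE annotation of this build only Cpa3 overlaps another gene, the microRNA gene Mir7007 on the same strand.

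Mast cell genes are known to be bound by GATA factors and by the E-box factor MITF, so the promoters of 3 proteases, whose levels moved together across libraries, are shown beside that of Hdc, whose levels did not follow them. Each line gives the 250 bases before the RefSeq transcription start in GRCm38.p6, 5′ to 3′ on the strand of the gene, and capitals mark GATA motifs.
Mcpt4, chr14:56062311-56062560: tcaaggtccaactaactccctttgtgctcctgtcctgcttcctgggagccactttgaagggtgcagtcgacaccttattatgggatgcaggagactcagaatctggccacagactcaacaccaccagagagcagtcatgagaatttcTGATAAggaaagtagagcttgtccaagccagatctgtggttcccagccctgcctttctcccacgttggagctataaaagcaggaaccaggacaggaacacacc
Cma1, chr14:55944676-55944925: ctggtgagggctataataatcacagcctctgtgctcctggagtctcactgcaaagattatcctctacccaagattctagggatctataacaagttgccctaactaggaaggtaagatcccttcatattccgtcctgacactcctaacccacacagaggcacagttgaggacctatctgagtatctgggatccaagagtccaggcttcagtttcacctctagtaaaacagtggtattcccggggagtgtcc
Cpa3, chr3:20242182-20242431: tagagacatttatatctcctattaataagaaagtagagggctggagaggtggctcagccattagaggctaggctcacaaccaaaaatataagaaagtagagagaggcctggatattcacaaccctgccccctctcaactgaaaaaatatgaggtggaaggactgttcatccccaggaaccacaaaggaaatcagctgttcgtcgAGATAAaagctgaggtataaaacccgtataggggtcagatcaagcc
Hdc, chr2:126618679-126618928: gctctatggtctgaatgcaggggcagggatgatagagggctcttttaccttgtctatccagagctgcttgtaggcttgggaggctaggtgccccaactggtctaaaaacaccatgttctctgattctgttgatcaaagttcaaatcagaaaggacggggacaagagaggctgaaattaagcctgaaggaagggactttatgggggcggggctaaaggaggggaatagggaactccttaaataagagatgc
The letters searched on both strands were AGATAA and TGATAA for GATA and CATGTG and CACGTG for the E-box. Mcpt4 held 1 GATA motif, beginning 103 bases before the start, and Cpa3 held 1, beginning 46 bases before it. Cma1 and Hdc held none of the letters searched. Other forms of GATA site were not searched. Of these, AGATAG lies in the Cma1 window, on the opposite strand, and TGATAG lies in that of Hdc. Outside these, Ms4a2 held 3 GATA motifs and Fcer1a held 1 GATA motif and 1 E-box, and both Kit windows held none. No 2 of these matches overlapped. Of all 32851 windows of the same length in the table, 16.6% held a GATA motif and 17.6% an E-box. A window was found for 7 of the 8 genes, and Tpsb2 has no entry. The RefSeq start of Hdc lies inside the GENCODE gene given above, so its window lies wholly within that gene. The bases before the GENCODE start of Hdc were not searched.

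Reads of the chymases could in principle be shared with near relatives. By blastn, the Mcpt4 transcript of 1108 bases aligned to that of Cma2 over 912 bases with 85.3% identity and to that of Mcpt1 over 998 bases with 82.5% identity, whereas Cma1 aligned to Mcpt4 over 682 bases with 68.2% identity. Tpsb2 aligned to Tpsab1 over a single stretch of 235 bases with 72.8% identity. Only the longest aligned stretch of each pair was kept, so the full extent of likeness between transcripts may be greater. None of the 8 genes had a count that was not whole in any library.

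On the TPM scale, which corrects for transcript length and allows genes to be compared, Hdc had the highest mean level at 51.0 ± 96.2 (SD, n = 9 libraries). The proteases followed with mean TPM of 8.02 ± 3.07 for Mcpt4, 7.19 ± 3.26 for Tpsb2, 6.97 ± 2.97 for Cma1 and 3.68 ± 1.29 for Cpa3, and Kit lay among them at 5.78 ± 1.32. Mcpt4, Tpsb2, Cma1 and Kit were each separated from the next in this order by less than their spread between libraries. Cpa3 was below Mcpt4, Tpsb2 and Cma1 in all 9 libraries and below Kit in 8. Both subunits specific to the IgE receptor were lower, at 0.457 ± 0.329 TPM for Fcer1a and 0.234 ± 0.186 TPM for Ms4a2, and did not differ from each other beyond their spread. By mean TPM, Hdc exceeded 88.0% of the genes in the table, Mcpt4 exceeded 58.8%, and Ms4a2 exceeded 32.8%. The order was not the same everywhere: Hdc ranked first of the 8 in 6 libraries and ranked 4, 5 and 4 in the libraries numbered 3 of H-151, PBS and SR-717.

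Library levels are given as CPM (normalized reads of a gene as a share of its library, scaled to a common total) after TMM normalization over the 9 libraries. Chymase Mcpt4 measured 2.86, 6.13 and 2.47 CPM in PBS replicates 1, 2 and 3, then 3.58, 5.92 and 6.56 in those of H-151 and 2.84, 6.01 and 7.01 in those of SR-717. It was low in 2 of the 3 PBS libraries and in replicate 1 of each drug group, and the groups overlapped. Cma1, the mouse counterpart of human chymase by sequence, measured 2.40, 6.09 and 2.02 CPM in PBS, 2.94, 4.68 and 5.95 in H-151 and 2.27, 4.22 and 6.01 in SR-717. The same 4 libraries were the lowest as for Mcpt4.

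Tryptase Tpsb2 measured 1.88, 5.79 and 2.53 CPM in PBS, 2.89, 6.66 and 6.56 in H-151 and 2.07, 5.07 and 5.78 in SR-717. Cpa3, whose product trims peptides and toxins in the granule, measured 1.54, 3.17 and 1.46 CPM in PBS, 3.14, 3.80 and 3.67 in H-151 and 1.86, 3.99 and 3.33 in SR-717. For all 4 proteases, PBS replicate 2 stood with the higher libraries of the drug groups, and no pair of groups was separated.

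Kit was the steadiest of the 8 genes, with a coefficient of variation of 22.6% over the 9 libraries against 34.4% to 45.6% for the proteases and 198% for Hdc. It measured 18.3, 17.4 and 12.5 CPM in PBS, 17.9, 16.1 and 12.2 in H-151 and 24.1, 16.1 and 13.1 in SR-717. The highest value was in SR-717 replicate 1, and the groups overlapped. Ms4a2 had counts of 3, 6 and 1 in PBS, 11, 5 and 1 in H-151 and 4, 6 and 5 in SR-717. Fcer1a had counts of 0, 7 and 1 in PBS, 5, 10 and 4 in H-151 and 7, 4 and 3 in SR-717. These totals of 42 and 41 reads over the 9 libraries fall under the filter on low counts, so neither gene entered the main test. The count of 0 in PBS replicate 1 allows up to 3 counts, or 0.171 CPM, by counting error alone. When no filter was applied, edgeR gave log2 fold changes in H-151 against PBS of 1.31 ± 0.98 for Fcer1a and 0.77 ± 0.90 for Ms4a2, at adjusted p of 0.99995. Log2 CPM of Fcer1a was higher in H-151 in all 3 same-numbered pairs, by 1.76, 0.58 and 1.03, and that of Ms4a2 in 1 of 3. No difference in either IgE receptor gene was detectable at this depth by that test in any comparison.

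Hdc spanned the widest range, 112-fold between its lowest and highest library. It measured 74.9, 17.6 and 3.88 CPM in PBS, 41.3, 20.3 and 7.23 in H-151 and 435, 19.7 and 9.64 in SR-717. Within every group the library numbered 1 was the highest and that numbered 3 the lowest, and the groups overlapped. Kit had that order too.

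**Figure D1:**
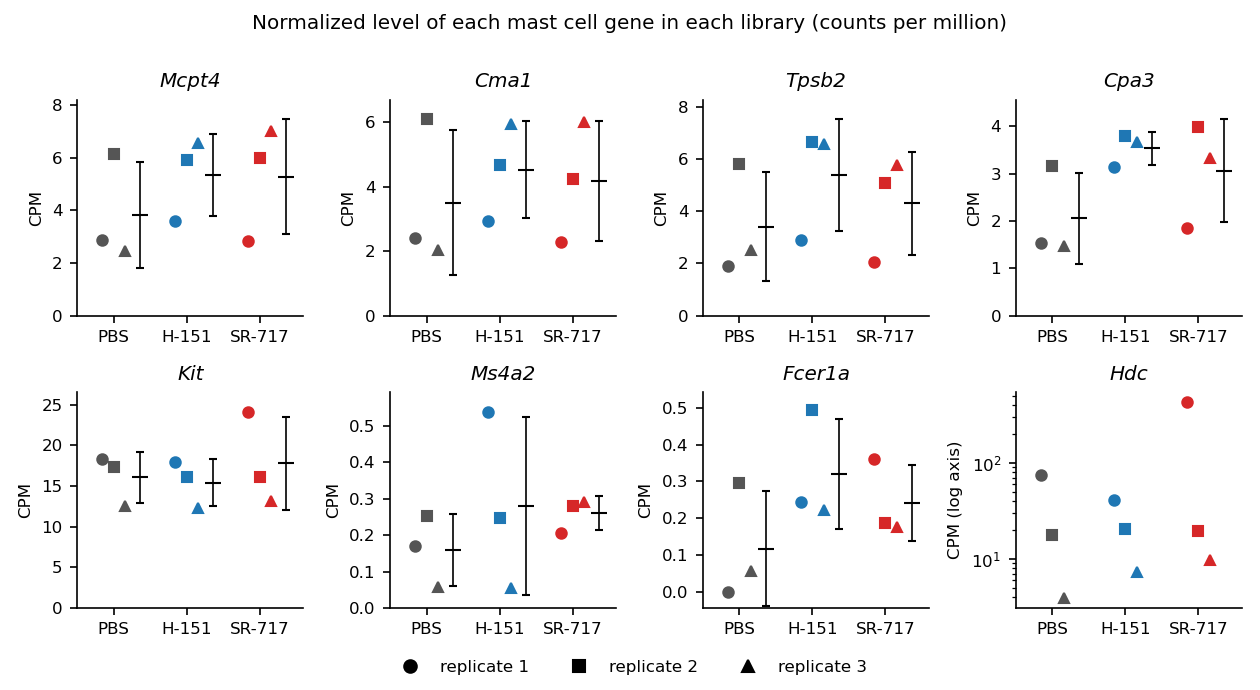
Level of each of the 8 genes in each library, in CPM on the vertical axis (a log axis for Hdc), by group on the horizontal axis. Symbols mark the replicate number, and black bars give the group mean ± SD of 3 libraries (not drawn for Hdc). The proteases were low in replicates 1 and 3 of PBS and in replicate 1 of SR-717, and Hdc reached 435 CPM in SR-717 replicate 1.

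The question of whether blocking or activating STING altered these genes was addressed with edgeR's quasi-likelihood test on the 6 libraries of each pair of groups, adjusted over all genes tested. Of the 8 genes, 6 passed the filter in every comparison. The percentage of all tested genes called is given as background. At an adjusted p under 0.05, 0 of the 6 were called in SR-717 against PBS, in H-151 against PBS and in SR-717 against H-151, where the background was 0% in each. At the thresholds of the study (unadjusted p under 0.05 and a fold change of at least 1.5), again 0 of the 6 passed in each comparison, against backgrounds of 0.519%, 0.426% and 0.756% in the same order. Over all genes the adjusted threshold called 0, and DESeq2's Wald test called 0, 0 and 1. In edgeR's test 97 of 14070, 91 of 14085 and 146 of 14151 tested genes had an unadjusted p under 0.05. Those are smaller shares than the 0.05 that a test gives without any difference, so p-values ran high in these data. Groups that did not overlap were seen for 0 of the 8 genes in each comparison, against backgrounds of 3.75%, 3.87% and 5.18%.

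In SR-717 against PBS, all 6 tested genes had a positive log2 fold change, with a median of 0.40 beside 0.01 over all tested genes. The mean levels of Hdc were 155 ± 243 CPM with SR-717 and 32.1 ± 37.7 CPM with PBS (SD, n = 3 each), a log2 fold change of 2.27 ± 1.64 (SE, adjusted p = 0.99988, edgeR) with a 95% interval of -1.69 to 6.23. Without SR-717 replicate 1 the log2 fold change of Hdc was -1.14. In a fit blocked by replicate number it was 1.35 ± 0.50 (unadjusted p = 0.043, adjusted p = 0.99911, edgeR), which is past the thresholds of the study, and 443 genes passed them in place of 73. The protease log2 fold changes lay between 0.24 ± 0.56 for Cma1 and 0.56 ± 0.46 for Cpa3, and that of Kit was 0.15 ± 0.29. Without PBS replicate 2 the proteases gave 0.91 for Cma1, 0.96 for Tpsb2, 0.98 for Mcpt4 and 1.02 for Cpa3, and 0 passed either threshold. Without SR-717 replicate 3 that of Cma1 was -0.11, and without PBS replicate 1 that of Tpsb2 was 0.04.

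In H-151 against PBS, the 4 proteases had positive log2 fold changes and Kit and Hdc negative ones, with a median of 0.42 beside -0.02 over all tested genes. The value for Hdc, -0.48 ± 1.02, became 0.015 when blocked by replicate number and 1.09 without PBS replicate 1. Cpa3 came nearest to the thresholds, with 3.53 ± 0.349 CPM in H-151 and 2.06 ± 0.965 CPM in PBS, a log2 fold change of 0.77 ± 0.36 (unadjusted p = 0.0733, adjusted p = 0.9999, edgeR) and a 95% interval of -0.10 to 1.63. Blocking by replicate number gave Cpa3 a value of 0.84 ± 0.31 (unadjusted p = 0.0379, adjusted p = 1, edgeR), past the thresholds of the study, and 262 genes passed them in place of 60. The other proteases gave 0.65 ± 0.51 for Tpsb2, 0.48 ± 0.42 for Mcpt4 and 0.36 ± 0.49 for Cma1. These values depended on the PBS library left out. Without PBS replicate 2 the 4 proteases passed the thresholds of the study, at adjusted p of 0.627 to 0.786 by edgeR. Their log2 fold changes were then 1.24 for Cpa3, 1.29 for Tpsb2, 1.04 for Cma1 and 1.01 for Mcpt4. In that fit 698 of all 14229 tested genes passed. Without PBS replicate 3 the 4 values were 0.57, 0.47, 0.083 and 0.24 in the same order, and 0 of the 6 genes passed. Kit differed by -0.06 ± 0.23 on the log2 scale, with a 95% interval of -0.59 to 0.48.

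In SR-717 against H-151, the median over the 6 genes was -0.08 beside 0.02 over all tested genes. Mcpt4 differed by -0.03 ± 0.41 and Cma1 by -0.13 ± 0.43 on the log2 scale, and the 95% intervals ran from -1.01 to 0.95 and from -1.17 to 0.91. Tpsb2 gave -0.33 ± 0.49, Cpa3 -0.22 ± 0.33 and Kit 0.20 ± 0.28. Hdc gave 2.74 ± 1.5 (adjusted p = 0.99576, edgeR), which became -0.65 without SR-717 replicate 1 and 3.29 without SR-717 replicate 3. In the latter fit its unadjusted p of 0.0476 in edgeR's test put it past the thresholds of the study, at an adjusted p of 0.694. In that fit 661 of all 14365 tested genes passed, in place of 107. Both comparisons with SR-717 share the SR-717 libraries, and both comparisons with PBS share the PBS libraries, so the 3 sets of values are not independent.

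**Figure D2:**
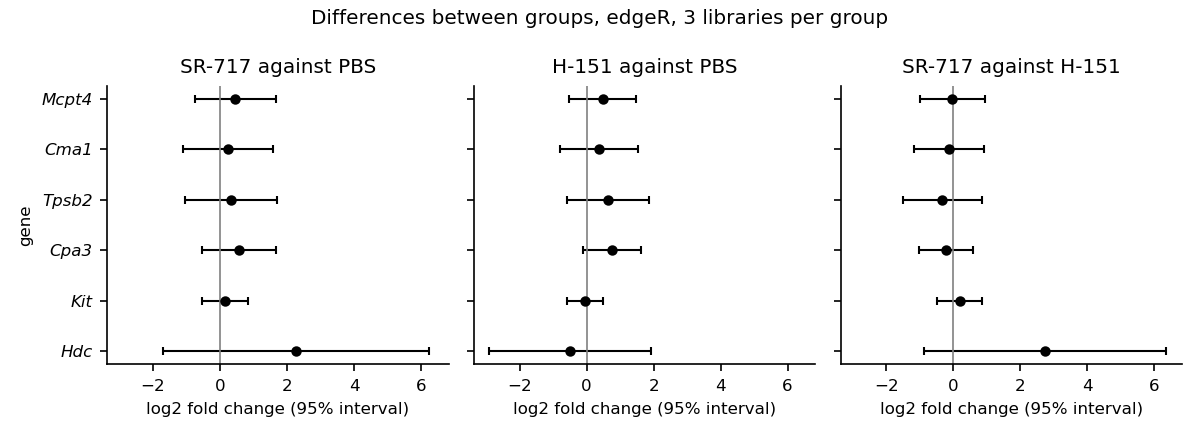
Log2 fold change (horizontal axis) of the 6 genes that passed the filter (vertical axis) in the 3 comparisons, from edgeR with 3 libraries per group. Points are estimates and bars are 95% intervals, all of which include 0. The bars of Hdc are the widest, and the bar of Cpa3 in H-151 against PBS begins at -0.10.

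Across libraries the proteases varied together. Their summed level was 8.68, 21.2 and 8.49 CPM in PBS, 12.6, 21.1 and 22.7 CPM in H-151 and 9.04, 19.3 and 22.1 CPM in SR-717. On the CPM scale each protease kept a similar part of that sum: Mcpt4 made up 28.1% to 32.9%, Cma1 21.9% to 28.7%, Tpsb2 21.7% to 31.6% and Cpa3 15.0% to 25.0%. The 6 pairs of proteases had Pearson r of 0.84 to 0.98 and Spearman rho of 0.65 to 0.93 for log2 CPM over the 9 libraries. After subtraction of the group means r was 0.88 to 0.99, and without PBS replicates 1 and 3, the libraries farthest from the median, it was 0.70 to 0.97. These values are descriptions over 9 points in which all genes share the library and its normalization. In bulk RNA, fewer cells of a type and less RNA per cell cannot be told apart.

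Kit and Hdc followed another course. Their r was 0.95 and their rho 0.93 over the 9 libraries, with r of 0.96 for deviations from the group means and 0.95 without PBS replicates 1 and 3. Against the proteases, r was -0.52 to -0.24 for Kit and -0.57 to -0.29 for Hdc, and without those PBS libraries it was -0.86 to -0.79 and -0.93 to -0.89. The ratio of Hdc to the protease sum accordingly varied from 0.318 in H-151 replicate 3 to 48.1 in SR-717 replicate 1. Fcer1a had r of 0.46 to 0.65 with the proteases and Ms4a2 had r of 0.04 to 0.41, both from few reads, and without PBS replicates 1 and 3 these were -0.34 to -0.13 and -0.38 to -0.05. Over all 28 pairs the median r was 0.38.

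**Figure D3:**
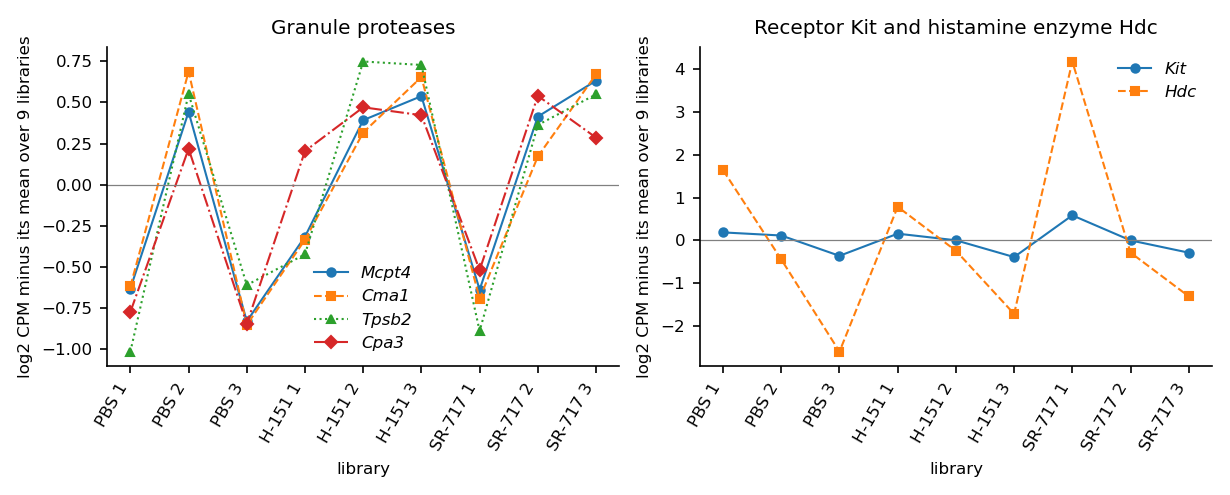
Log2 CPM of each gene minus its mean over the 9 libraries (vertical axis) by library (horizontal axis), for the 4 proteases on the left and for Kit and Hdc on the right. The proteases fall together in PBS replicates 1 and 3 and in SR-717 replicate 1, whereas Kit and Hdc peak in SR-717 replicate 1 and are lowest in the libraries numbered 3.

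**Figure D4:**
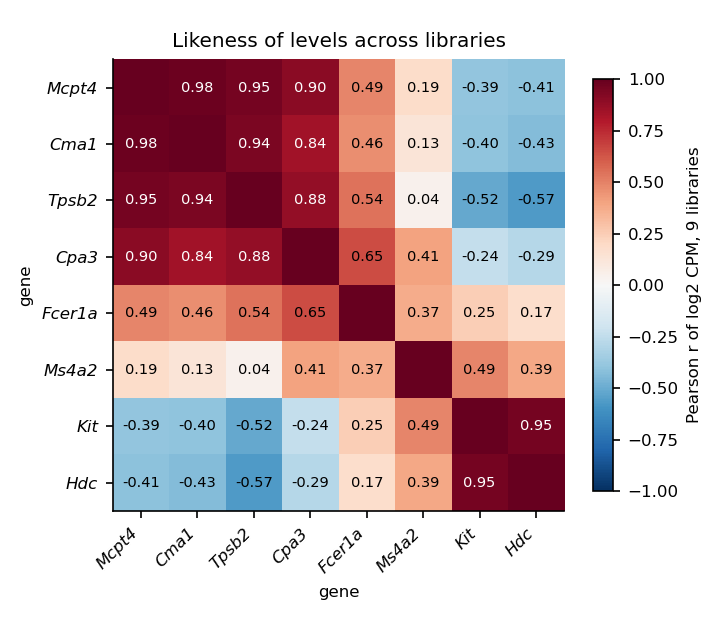
Pearson r of log2 CPM over the 9 libraries for each of the 28 pairs of genes, with color from -1 (blue) to 1 (red). The 4 proteases form 1 block with r of 0.84 to 0.98, and Kit with Hdc forms another with r of 0.95.

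Other cell types that carry these genes, or that the dissected callus may hold, were read from marker lists. Melanocytes, which also depend on KIT, had 5 markers with a summed level of at most 1.40 CPM in any library. Most of these reads were of Pmel, and Dct and Tyrp1 had 0 reads in PBS and in H-151 and 3 and 4 reads in SR-717 (all 3 chosen after their values were seen). Basophils share Fcer1a, Ms4a2 and Hdc with mast cells. Their 6 markers summed to 20.1 to 35.2 CPM with 1 of the 6, Il13, at 0 in all libraries (the markers named here were chosen after their values were seen). Most of that sum was Il3ra, a receptor subunit that other cells also carry, at 14.7 to 25.8 CPM. The basophil proteases Mcpt8 and Prss34 ranged from 0.674 to 5.77 CPM and from 0.514 to 13.9 CPM, while Cd200r3 did not exceed 0.343 CPM and Il4 did not exceed 0.111 CPM. The summed level of 7 skeletal muscle markers was 12497, 18927 and 4171 CPM in PBS, 11197, 18994 and 15352 CPM in H-151 and 9579, 19285 and 24200 CPM in SR-717. The 4 libraries lowest for muscle markers were the 4 lowest for the proteases, and the mean log2 levels of the 2 lists had r of 0.82 (rho 0.73). Of the 7 muscle markers, 7 had a positive log2 fold change in SR-717 against PBS (median 0.58) and 7 in H-151 against PBS (median 0.41), and 0 passed either threshold. The 5 Schwann cell markers had r of 0.87 (rho 0.85) with the proteases, the 5 B lineage markers 0.75 (rho 0.53) and the 6 adipocyte markers 0.73 (rho 0.55). For the blood progenitor, chondrocyte, eosinophil, basophil, osteoblast, osteoclast, melanocyte and keratinocyte lists this r lay between 0.13 and 0.53 (rho 0.03 to 0.30). For the neutrophil, macrophage, endothelial and T or NK cell lists it lay between -0.36 and -0.03 (rho -0.40 to -0.10). Their part in the differences between libraries was not tested.

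Hdc varied across libraries more closely with the markers of some leukocytes than with those of others. The summed level of 9 neutrophil markers was 3491, 2963 and 583 CPM in PBS, 4698, 4589 and 1325 CPM in H-151 and 14197, 3863 and 2522 CPM in SR-717, with r of 0.88 to Hdc and 0.89 to Kit. All 9 of these markers had a positive log2 fold change in SR-717 against PBS (median 1.37), in SR-717 against H-151 (median 0.67) and in H-151 against PBS (median 0.76), and 0 passed either threshold. In the last comparison the log2 fold change of Hdc was negative, at -0.48 ± 1.02. For 6 T or NK cell markers r with Hdc was 0.93, for 6 macrophage markers 0.90 and for 6 osteoblast markers -0.96. For 6 basophil markers it was 0.36, for 7 eosinophil markers 0.14 and for 5 B lineage markers -0.32. The contrast was smaller by Spearman rho. It was 0.83 for neutrophil, 0.87 for T or NK cell and 0.82 for macrophage markers, and -0.93 for osteoblast markers. Basophil and eosinophil markers each had rho of 0.47, and B lineage markers -0.17. Hdc is also made by basophils and by immature myeloid cells. SR-717 replicate 1 stood apart over all genes, at 100.6 on the first principal component (46.6% of the variance) where PBS replicate 1 lay at 38.8 and the other 7 between -28.8 and -4.03. Whether these cell types account for the Hdc values was not tested. The osteoblast markers summed to 22419 to 44928 CPM over the libraries, while 6 chondrocyte markers were as low as 426 CPM in SR-717 replicate 1 beside 1791 to 16678 CPM elsewhere.

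**Figure D5:**
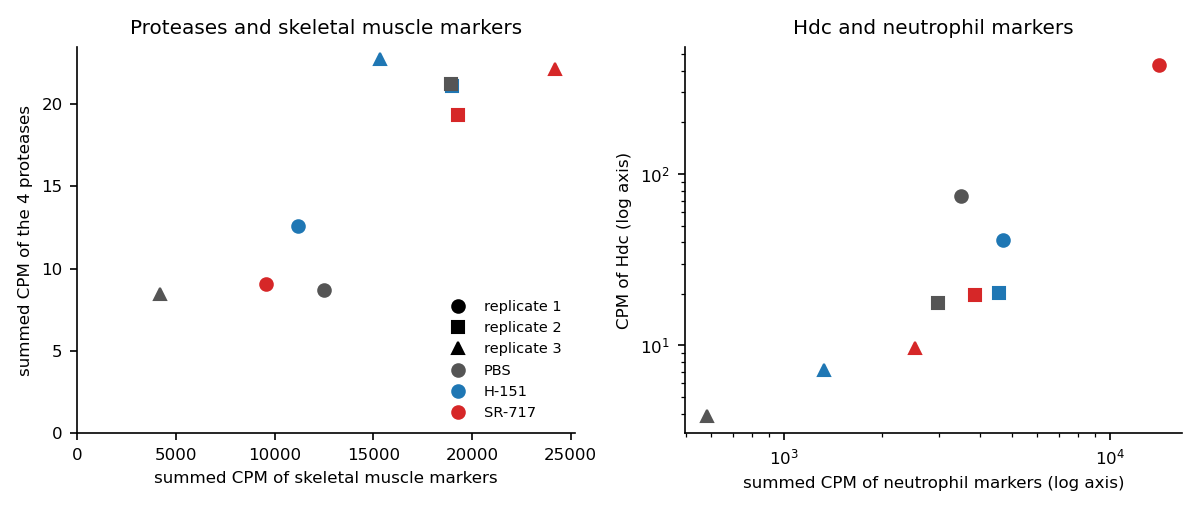
Left, summed CPM of the 4 proteases (vertical axis) against summed CPM of 7 skeletal muscle markers (horizontal axis). Right, CPM of Hdc (vertical log axis) against summed CPM of 9 neutrophil markers (horizontal log axis). Each point is 1 of 9 libraries, with color for the group and symbol for the replicate number. The 4 libraries with the lowest muscle markers have protease sums of 8.49 to 12.6 CPM and the other 5 have 19.3 to 22.7 CPM. SR-717 replicate 1 is the highest for both Hdc and neutrophil markers.

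Other genes of mast cell biology were read as 5 lists holding 51 genes. Of these, 42, 41 and 41 were tested in SR-717 against PBS, H-151 against PBS and SR-717 against H-151, and 0 passed either threshold in any comparison. Among 12 further granule genes, Cd63, a membrane protein of granules and lysosomes, measured 638 to 951 CPM and Srgn, the proteoglycan core that binds proteases in granules, 37.9 to 191 CPM in 8 libraries and 1521 CPM in SR-717 replicate 1. The mucosal chymases Mcpt1 and Mcpt2 (chosen after their values were seen) had group means of 0.791 to 1.37 and 2.57 to 3.44 TPM, where those of Mcpt4 were 6.63 to 8.87 TPM. Tpsab1, the other tryptase of these cells, did not exceed 0.258 CPM (also chosen after its values were seen). In SR-717 against PBS, 3 of 8 tested granule genes were positive and 5 negative, with a median of -0.22. The list of 12 had r of -0.65 with the proteases (rho -0.45) and 0.87 with Hdc (rho 0.73).

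The surface receptor list followed Hdc rather than the proteases, with r of 0.83 and -0.55 (rho 0.60 and -0.25). The neutrophil, macrophage and T or NK cell lists also followed Hdc, with r of 0.88, 0.90 and 0.93. Which cells carried the receptor genes was not tested. Fcer1g, the gamma chain that the IgE receptor shares with other Fc receptors, measured 93.1 to 260 CPM in PBS, 102 to 144 CPM in H-151 and 115 to 501 CPM in SR-717. Lilrb4a, an inhibitory receptor, measured 2.11 to 33.6, 3.25 to 13.3 and 0.175 to 67.6 CPM in the same groups, and the mouse carries a close copy of it with which reads may be shared. Mrgprb8 had no read in any library, and Mrgprb1 and Mrgprb2 had at most 10 and 5 reads in any group (all chosen after their values were seen). Positive values made up 7 of 8 tested genes in SR-717 against PBS, with a median of 0.81, and 3 of 7 in H-151 against PBS, with a median of -0.01.

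IgE receptor and KIT signaling genes, 16 in number, had r of 0.95 with Hdc (rho 0.82) and -0.31 with the proteases (rho -0.23). As with the receptor list, the neutrophil, macrophage and T or NK cell lists had r of 0.88 to 0.93 with Hdc. Which cells carried the signaling genes was not tested. Lyn, the kinase that starts signaling from the receptor, measured 72.8 to 124 CPM in PBS, 73.8 to 91.6 CPM in H-151 and 77.3 to 245 CPM in SR-717, and the adaptor Lat2 36.3 to 66.1 CPM over all libraries. Of 15 tested, 12 were positive in SR-717 against PBS (median 0.38) and 6 in H-151 against PBS (median -0.09). Among genes of lipid mediators and amines, Alox5ap, which presents arachidonic acid to 5-lipoxygenase, measured 32.6 to 112 CPM in PBS, 41.4 to 94.5 CPM in H-151 and 58.0 to 270 CPM in SR-717, and Ptgs1, the constitutive cyclooxygenase, 12.5 to 22.6 CPM over all libraries. Their medians were 0.46 in SR-717 against PBS and 0.07 in H-151 against PBS.

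The 5 transcription factors were the only 1 of the 5 lists whose r with the proteases, 0.78, was above that with Hdc, -0.26. By rho these values were 0.48 and -0.20. Lmo2, a partner of GATA factors, measured 20.1 to 29.4 CPM in PBS, 29.3 to 36.4 CPM in H-151 and 27.97 to 39.1 CPM in SR-717. Tal1, the E-box factor of the same complex, measured 7.42 to 24.9, 12.1 to 29.6 and 8.47 to 32.8 CPM in the same groups. The medians of the list were 0.28 in SR-717 against PBS and 0.35 in H-151 against PBS. Among marker lists of other cells, 3 genes passed the thresholds of the study. Dsp was 1 of 3 tested keratinocyte genes in SR-717 against PBS (log2 fold change 1.83). Hlf was 1 of 6 blood progenitor genes in H-151 against PBS (0.82) and in SR-717 against H-151 (-0.95). Cd163 was 1 of 6 macrophage genes in H-151 against PBS (1.35). No gene of the remaining marker lists passed. The backgrounds over all tested genes were 0.519% in SR-717 against PBS, 0.426% in H-151 against PBS and 0.756% in SR-717 against H-151. By edgeR no adjusted p in the lists of these genes was under 0.99576.

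The genes whose levels were most like the mean standardized level of the 8 genes, of 14288 ranked, were Gstm1 (r = 0.97), Rbm38, Sh3rf2, F2rl2, Jakmip1, H2bc27, Cyp2e1, Selenbp1, Pck1 and Tuba4a (r = 0.94) over the 9 libraries. With the 4 proteases alone as the pattern, a choice made after seeing the data, 0 of these 10 remained. Pitx3 (r = 0.98) then led, followed by Mb, Actn2, Myl3, Hspb6, Myh2, Best3, Padi2, Idh3g and Ckmt2 (r = 0.97), among which Mb is myoglobin of muscle and Actn2, Myl3 and Myh2 encode sarcomere proteins. Mb ranged from 259 to 1257 CPM. With 14288 genes ranked over 9 libraries, r of this size can also arise between unrelated genes, for either pattern. The mean of the 8 genes also joins the proteases with Kit and Hdc, which had negative r with them. Myh8, a developmental myosin and the single gene that DESeq2 called in SR-717 against H-151 (log2 fold change 0.98, chosen after its values were seen), is not one of the 8.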

How the data were processed

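Callus RNA was represented by 9 poly(A)-selected, strand-specific, paired-end libraries, 3 each from the H-151, PBS and SR-717 groups, assigned from the sample labels. The labels' extraction text speaks of cell lines, while their tissue field gives bone and the study's methods give callus. Sequencing and read processing were done by a company. The submitters' processing notes name the build mm10. The aligner, the counting program and its use of strand are not given in the sources used here. The authors deposited expected counts per gene, not normalized and not all whole (8.91% of values were not), and TPM values, scaled by the authors for length and library total. No column of the authors' own comparisons was used. Expected counts summed to 16987398 to 23272480 per library.

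Expected counts were rounded and compared by edgeR 4.0.16 under R 4.3.3 (low counts were removed by filterByExpr at a minimum count of 10 and a minimum total of 15, TMM, glmQLFit and glmQLFTest) on the 6 libraries of each pair of groups, without covariates and with Benjamini-Hochberg adjustment over all tested genes. Calls used an adjusted p under 0.05 or the study's thresholds, an unadjusted p under 0.05 with a fold change of at least 1.5. Whether the study adjusted p is not stated. SE was derived from the F statistic, and log2 CPM used a prior count of 2. The test was checked on simulated counts. The 95% intervals include the spread between libraries, and floors of 3 counts cover counting error only.

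The 8 genes and all gene lists were chosen with earlier results of these data known, so no test was made over a list. The text names the 8 genes, listed genes past the study's thresholds, the 2 highest by mean TPM in each of the 5 mast cell lists and the 10 genes most like the set, and other genes are said to have been chosen after their values were seen. Alternatives were DESeq2 size factors, the Wald test of DESeq2 1.42.0, no filter on low counts, 1 fit over all 9 libraries, a block for replicate number, omission of every library in turn, and, for likeness, log2(TPM + 1), deviations from group means and omission of the 2 farthest libraries. The labels number the replicates without saying what a number stands for. Measured against the group means, libraries with the same number deviated with r of 0.65, 0.34 and 0.14 between SR-717 and PBS. Between H-151 and PBS these r were 0.30, 0.49 and 0.50, and all were over 0.1. The deviations of a gene cancel within a group, and libraries with different numbers were not compared in this way. These r therefore cannot show that the numbers pair the libraries. Values blocked by number stand, as an alternative, beside the results they change. Gene positions came from GENCODE (GRCm38), promoters from RefSeq (GRCm38.p6) and transcript alignments from blastn 2.17.0. Protein identities, and the untreated callus, histology and cell culture experiments of the study, are not analysed here.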

Additional observations from a re-analysis of the deposited data

How the results depend on the processing

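Of 198 recomputed fold changes of the 6 tested genes, 179 kept their direction, 19 reversed, 18 of them when a library was left out, and 0 passed an adjusted p of 0.05. With each library left out, log2 fold changes in SR-717 against PBS ranged from -0.13 to 0.32 for Kit, from -0.11 to 0.91 for Cma1 and from -1.14 to 3.84 for Hdc. In H-151 against PBS they ranged from -0.21 to 0.083 for Kit and from -1.22 to 1.09 for Hdc. For the proteases in that comparison they ranged from 0.083 to 1.04 (Cma1), 0.24 to 1.01 (Mcpt4), 0.36 to 1.29 (Tpsb2) and 0.57 to 1.24 (Cpa3). In SR-717 against H-151 they ranged from -0.28 to 0.27 for Mcpt4, from -0.48 to 0.17 for Cma1, from -0.46 to 0.044 for Cpa3, from -0.62 to 0.0078 for Tpsb2, from -0.086 to 0.37 for Kit and from -0.65 to 3.48 for Hdc. Under the replicate block, Hdc in H-151 against PBS became 0.015. The cause of these reversals was not tested beyond the library left out. DESeq2 gave no p for Hdc in either comparison with SR-717, as it does when it flags a count as an outlier. The Hdc counts in SR-717 replicates 1, 2 and 3 were 8420, 419 and 165.

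Genes past the study's thresholds in SR-717 against PBS, 73, became 138 with DESeq2's Wald test, 194 without a filter, 176 with all 9 libraries in 1 fit, 443 under the replicate block and 95 to 319 with a library left out (highest without SR-717 replicate 3, and 259 without PBS replicate 2 and 118 without PBS replicate 1). In H-151 against PBS, 60 became 127 without a filter, 262 under the replicate block and 43 to 698 with a library left out (698 without PBS replicate 2, 153 without PBS replicate 3, 115 without PBS replicate 1 and 99 without H-151 replicate 3). In SR-717 against H-151, 107 became 209 with the Wald test, 223 without a filter, 171 with all 9 libraries and 64 to 661 with a library left out (661 without SR-717 replicate 3, 384 without SR-717 replicate 2 and 64 without H-151 replicate 2), and the Wald test called 1 gene at an adjusted p under 0.05 in place of 0. In that comparison same-numbered libraries had r of 0.34, 0.06 and 0.08, not all over 0.1, and the block gave 143 genes. Beside Hdc in SR-717 against PBS and Cpa3 in H-151 against PBS, the replicate block changed no call on the 6 genes that passed the filter.

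The median r of the 28 pairs, 0.38, was 0.30 for deviations from group means and -0.21 without PBS replicates 1 and 3. Of the 10 genes most like the set, 6 remained with log2(TPM + 1) and 0 with the proteases as the pattern. Counts of 44 to 145 for Mcpt4 and 0 to 11 for the IgE receptor genes per library limit the precision of all of these values.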
